A study of Rattus norvegicus with 35 samples.

Results

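The genes described here are the collagens and the enzymes and partners that turn collagen chains into fibres, as measured in rat liver. They were taken by symbol from the array annotation: every gene named as a collagen alpha chain, the lysyl oxidase family (Lox and its Loxl relatives), the Plod genes, the P4ha genes, and the non-collagen matrix genes Eln, Fbn1 and Fn1. A gene was represented by the brightest of its probe sets that carry 1 symbol. This gave 50 genes of the 13438 on the array, read from 70 probe sets. The rule used names and brightness and no difference between groups.

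Liver RNA of 35 rats was measured on single-colour Affymetrix arrays, 1 array per sample. The simvastatin H/R group (n = 8) and the simvastatin sham group (n = 5) were rats with a ligated common bile duct that received simvastatin, an HMG-CoA reductase inhibitor, by gavage at 5 mg/kg once a day over the final 3 days, and the experiment followed the last dose by 1 h. The ligated H/R group (n = 6) and the ligated sham group (n = 5) were ligated rats without simvastatin, and the control H/R group (n = 6) and the control sham group (n = 5) had no ligation. H/R stands for hemorrhage followed by resuscitation, and sham for the sham version of that procedure. All ligated rats were studied 4 weeks after the ligation, which produces secondary biliary cirrhosis, and received vitamin K by injection every week. The labels do not say whether ligated rats without simvastatin were given vehicle, nor whether the controls had sham ligation surgery. Strain, sex and age are not given in the labels used here. The labels do not say more about how the samples of a group relate, so p-values measure only the spread between these samples.

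Collagens are made of alpha chains that wind around each other into a helix. Prolyl 4-hydroxylases, whose catalytic subunits are the P4ha genes, stabilise that helix inside the cell, lysyl hydroxylases, the Plod genes, prepare lysines for crosslinks, and lysyl oxidases link the finished molecules outside the cell. In fibrosis of the liver these products accumulate around portal tracts and along sinusoids, and hepatic stellate cells and portal fibroblasts are their best known source, while bile duct epithelium rests on a basement membrane of type IV collagen. An array of whole liver measures all cells at once, so fewer cells of a type and less RNA per cell cannot be told apart in any result below.

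Values are log2 signals as deposited, and a difference of 1 is a doubling. Array medians lay between 3.97 and 4.29, and precision rests on 5 to 8 arrays per group. A gene was taken as above background in a group when its group mean exceeded the mean of the brightest nonspecific probe of each array, which was 3.32 in simvastatin H/R, 3.26 in simvastatin sham, 4.00 in ligated H/R, 3.64 in ligated sham, 4.59 in control H/R and 4.51 in control sham arrays. By this measure 23 of the 50 genes were above background in all 6 groups, 17 in some groups, and 10 in 0 groups. Those 10 were Col2a1, Col4a4, Col6a5, Col9a1, Col10a1, Col11a2, Col22a1, Col23a1, Col24a1 and Col26a1, which include collagens best known from cartilage. Where the dimmer group was not above background, the fold is a bound and is written as at least that fold. Ligated and control arrays also differed in a hybridisation control, the BioD minus BioB signal, which was 3.94 in ligated sham and 3.50 in control sham arrays and 3.73 in ligated H/R and 3.45 in control H/R arrays (group means). The part of these signals in the ligation results was not tested. Within the ligated groups, some arrays stood low for many members at once: ligated sham replicate 3, ligated H/R replicates 3 and 4, and simvastatin H/R replicates 3, 4 and 6. In the simvastatin sham group, replicate 1 was lowest for 9 of the 25 members described at the end and highest for 8. For some results of Col14a1, Col8a1, Col1a1, Col1a2 and Col3a1 the value without 1 of these arrays is also given.

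Comparing ligated sham with control sham livers asked how the collagen program stood in cirrhotic livers before any blood loss. Differences were tested with limma over all 13438 genes with Benjamini-Hochberg adjustment, and a gene passed at an adjusted p under 0.05. Of the 50 members 26 rose and 5 fell, where 25.3% of all genes rose and 22.4% fell. The median log2 difference was 0.77 over the members and -0.04 over all genes. Of the 26 that rose, 22 had an estimated fold of 2 or more. In 23 members every ligated sham array lay above every control sham array (18.8% of all genes), and in 1 member every ligated sham array lay below (13.3% of all genes). All control arrays carried a title number ending, of unstated meaning, that no untreated ligated array carried, so ligation and that ending cannot be told apart here. With each array centred on its own median, which moves the median of all genes to -0.42, 22 members rose and 14 fell. Of all 13438 genes 1949 rose and 7356 fell under that centring.

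**Figure D1:**
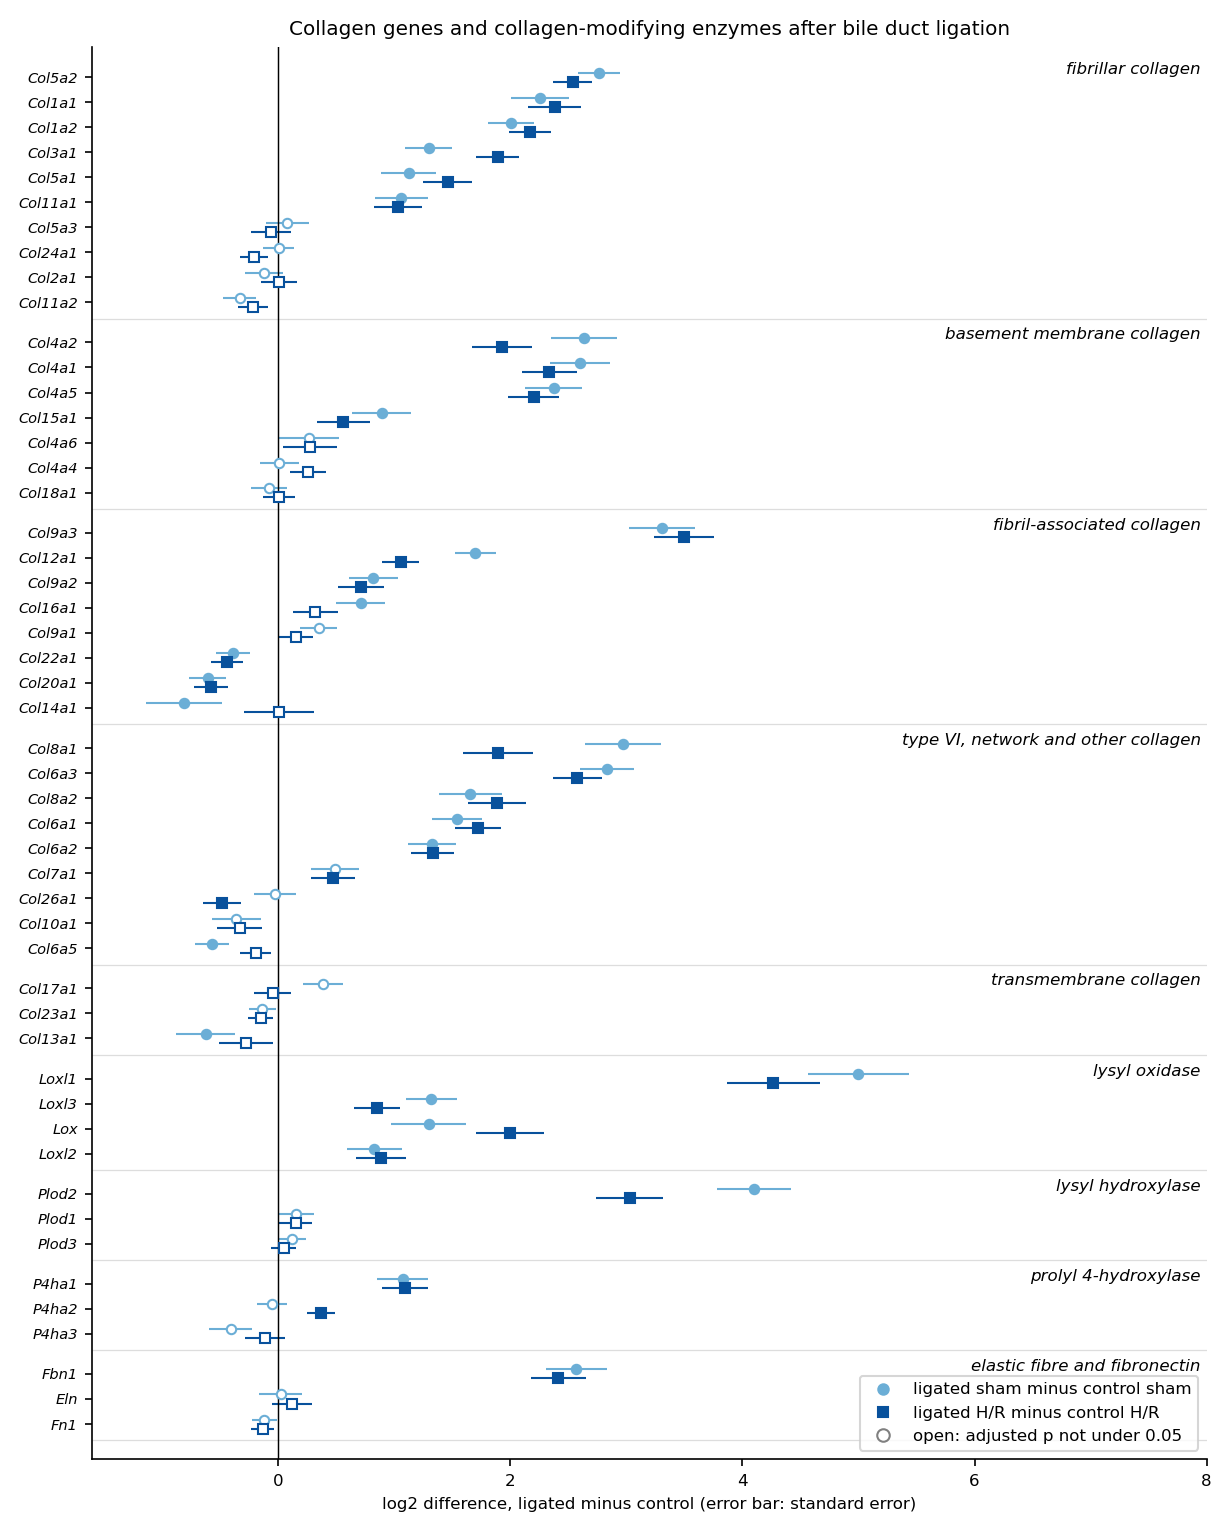
Log2 difference between ligated and control livers for each of the 50 genes, grouped by role, with the standard error as a bar. Circles are ligated sham minus control sham and squares are ligated H/R minus control H/R, and open symbols did not pass the adjusted threshold. The 4 lysyl oxidase genes lie right of 0 in both comparisons, with Loxl1 at 5.00 and 4.27, while Plod1, Plod3, Col18a1, Eln and Fn1 lie near 0.

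Among the 10 fibrillar collagens, the chains of the banded fibres, 6 rose and 0 fell after ligation. Col5a2, a chain of type V collagen that sits in the core of type I fibrils and sets their width, had 9.17, 9.27, 8.56, 9.65 and 9.10 in ligated sham livers, against 6.58, 6.66, 6.49, 5.69 and 6.50 in control sham livers. The groups did not overlap, and the lowest ligated array was far above the highest control array. The difference was log2 2.77 ± 0.18 (SE), a 6.80-fold rise (limma, adjusted p = 6.03e-14). Col1a1 and Col1a2 encode the chains of type I collagen, the main protein of scar. Col1a1 had 6.76, 6.45, 6.64, 6.13 and 6.35 in ligated sham livers, against 4.26, 4.58, 4.05, 4.22 and 3.92 in control sham livers, where it was not above background. It rose at least 3.72-fold, with a log2 difference of 2.26 ± 0.25 (adjusted p = 5.22e-09).

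Col1a2 had 9.75, 9.56, 9.82, 9.59 and 9.67 in ligated sham livers, against 8.09, 7.56, 7.69, 7.51 and 7.50 in control sham livers. The ligated arrays spanned a narrow band entirely above the controls, and the rise was 4.02-fold (log2 2.01 ± 0.20, adjusted p = 6.90e-10). Col3a1, the chain of reticular type III fibres, had 11.45, 11.27, 11.55, 11.07 and 10.42 in ligated sham livers, against 9.91, 9.53, 9.89, 9.86 and 10.10 in control sham livers. These groups also did not overlap, but the lowest ligated array came close to the highest control array (log2 1.30 ± 0.20, adjusted p = 3.18e-06). Col5a1, the partner chain of Col5a2, rose by log2 1.13 ± 0.23, a smaller estimate than that of Col5a2. Col11a1, a minor fibril chain, rose at least 1.45-fold. The other 4 fibrillar chains, Col2a1, Col5a3, Col11a2 and Col24a1, did not pass, with log2 differences from -0.33 to 0.08, and 0 of them was above background in either group.

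Basement membrane collagens gave 4 rises and 0 falls among 7. Col4a1 had 9.23, 9.17, 8.54, 9.61 and 8.76 in ligated sham livers, against 6.59, 6.92, 6.43, 6.16 and 6.20 in control sham livers. Col4a2 had 7.61, 7.40, 6.08, 7.64 and 7.15 in ligated sham livers, against 4.91, 4.73, 4.30, 4.61 and 4.13 in control sham livers. In both genes the groups stood apart, and replicate 3 was the lowest ligated array. These chains join in 1 molecule, the common type IV collagen, and their log2 differences were 2.60 ± 0.26 and 2.64 ± 0.28 (adjusted p = 6.15e-10 and 3.00e-09). Col4a5, a chain best known from the kidney basement membrane, had 9.82, 9.57, 9.10, 10.11 and 9.55 in ligated sham livers, against 7.27, 7.13, 6.91, 7.56 and 7.42 in control sham livers. Every ligated array was higher, and the rise was 5.18-fold (log2 2.37 ± 0.24, adjusted p = 1.10e-09). Col15a1, a basement membrane-associated collagen, rose at least 1.13-fold with overlapping groups (log2 0.89 ± 0.25, adjusted p = 0.00403), and its call was lost after quantile normalization (0.58, adjusted p = 0.077) and median centring (0.51, adjusted p = 0.071). Col18a1, the source of endostatin, had a log2 difference of -0.08 ± 0.15 with a 95% interval from -0.39 to 0.24, and Col4a6 one of 0.26 ± 0.26.

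Col4a1 and Col4a2 lie head to head on rat chromosome 16, Col4a2 on the minus strand and Col4a1 on the plus strand, with 76 bases between their starts. Col4a5 and Col4a6 are arranged in the same way on chromosome X, with 1414 bases between the starts. Both genes of the close pair rose, by log2 2.60 for Col4a1 and 2.64 for Col4a2, while in the wider pair Col4a5 rose and Col4a6 did not pass on its brightest probe set. A dimmer Col4a6 probe set did pass when every probe set was tested by itself (log2 0.45, limma, adjusted p = 0.029). That set averaged 3.49 over all arrays, below the nonspecific level of ligated sham and control sham arrays, and gives no direction. The stretch between the starts of the close pair is shown because both genes read outward from it; it was chosen after the values were seen (RefSeq, build GRCr8, chr16:84885521-84885596, plus strand). Capitals mark the letters of the GC box GGGCGG, here on the other strand, and CCAAT was searched on both strands and not found in it.
between the starts of Col4a2 and Col4a1: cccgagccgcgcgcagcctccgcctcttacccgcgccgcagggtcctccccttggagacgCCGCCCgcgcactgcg

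GGGCGG, on either strand, was present in 33.1% of the 33469 rat promoters of the same table, each running from 250 bases before to 50 after the start, and in 22 of the 38 members with an entry. Other members also neighbour each other in the RefSeq gene order. Col6a1 and Col6a2 on chromosome 20 had log2 differences of 1.54 and 1.32, and Col3a1 and Col5a2 on chromosome 9 had 1.30 and 2.77. All 4 genes rose.

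Fibril-associated collagens decorate or bridge the banded fibres, and this class was mixed, with 4 rises and 3 falls among 8. Col9a3, a chain of type IX collagen best known from cartilage, had 6.51, 6.48, 5.45, 6.54 and 6.49 in ligated sham livers, against 3.21, 3.29, 2.90, 2.73 and 2.79 in control sham livers. The controls were not above background, and 4 of the 5 ligated arrays lay within 0.1 of each other with replicate 3 below them. The rise was at least 3.45-fold (log2 3.31 ± 0.29, adjusted p = 2.87e-11). Col9a2, another type IX chain, rose by log2 0.82 ± 0.21 with overlapping groups, and its call was lost after quantile normalization (0.42, adjusted p = 0.086) and median centring (0.44, adjusted p = 0.051). Col9a1 was not above background in any group. Col12a1, which links fibrils to their surroundings, rose 3.25-fold (log2 1.70 ± 0.18, adjusted p = 1.35e-09) on its brightest probe set. Its dimmer probe sets averaged 2.58 and 2.52 over all arrays, below the nonspecific level, and give no direction. Col16a1 rose by log2 0.71 ± 0.21.

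Col14a1, a fibril-associated collagen of undulin type, went the other way. It had 6.35, 6.37, 7.80, 6.07 and 6.68 in ligated sham livers, against 7.63, 7.14, 7.62, 7.45 and 7.50 in control sham livers. Of the ligated arrays 4 lay below all controls, and replicate 3 lay above all of them. The log2 difference was -0.81 ± 0.33 (limma, adjusted p = 0.040), and the call was lost on leaving out any 1 of the 10 arrays compared except that replicate and control sham replicate 2 (adjusted p up to 0.119). Without that replicate it was -1.10 (adjusted p = 0.00467). Col20a1 and Col22a1 fell by 0.61 and 0.39 on the log2 scale, at levels not above background in either group. Apart from Col14a1, the only fall with a group above background was that of Col13a1, a transmembrane collagen (log2 -0.62 ± 0.25, adjusted p = 0.042), whose call was lost on leaving out any 1 of 7 of the 10 arrays (adjusted p up to 0.186). Of the other transmembrane chains, Col17a1 had a log2 difference of 0.38 ± 0.17 and Col23a1 one of -0.14 ± 0.12, and neither passed.

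Type VI and network collagens gave 5 rises and 1 fall among 9. Col6a3, the largest chain of the beaded filaments that anchor cells to fibres, had 9.11, 9.0, 8.69, 9.0 and 8.82 in ligated sham livers, against 6.47, 6.20, 5.92, 5.66 and 6.21 in control sham livers. The rise was 7.13-fold with no overlap (log2 2.83 ± 0.23, adjusted p = 7.85e-12). A dimmer probe set averaged 3.16 over all arrays, below the nonspecific level, and gives no direction. Col6a1 rose 2.91-fold, and Col6a2 rose by log2 1.32 ± 0.21 with no fold given, since controls were not above background. Col8a1, a chain of the hexagonal network of vessel walls, had 7.87, 7.69, 6.78, 8.21 and 7.37 in ligated sham livers, against 4.66, 4.45, 4.66, 3.92 and 5.36 in control sham livers. Every ligated array was higher, and the rise was 7.86-fold (log2 2.97 ± 0.33, adjusted p = 4.72e-09). Its partner Col8a2 rose at least 1.28-fold. Col6a5 fell by 0.57 on the log2 scale at levels not above background, and Col7a1, the anchoring fibril collagen, did not pass (log2 0.49 ± 0.21, adjusted p = 0.052).

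All 4 measured lysyl oxidase genes rose. Loxl1, whose product crosslinks elastin and collagen, had 9.30, 9.56, 7.96, 9.68 and 8.81 in ligated sham livers, against 4.88, 3.20, 4.09, 4.06 and 4.09 in control sham livers. The control mean was not above background, and even the lowest ligated array was far above the controls. The rise was at least 21.0-fold (log2 5.00 ± 0.44, adjusted p = 3.37e-11), the largest log2 difference among the 50 members in this comparison. Lox, the founding enzyme, had 8.41, 8.28, 8.35, 8.71 and 8.24 in ligated sham livers, against 7.92, 8.12, 7.12, 5.29 and 7.05 in control sham livers. The groups did not overlap but the controls were widely spread, and the rise was 2.46-fold (log2 1.30 ± 0.32, adjusted p = 0.00121). Loxl3 rose at least 1.09-fold and Loxl2 1.78-fold. The rise of Loxl2 rests on its brightest probe set, since the dimmer one averaged 3.27 over all arrays, below the nonspecific level of ligated and control groups, and it did not pass after quantile normalization, median centring or averaging of probe sets.

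Of the 6 intracellular hydroxylase genes 2 rose and 0 fell. Plod2, the lysyl hydroxylase that acts on the collagen ends where stable crosslinks form, had 8.29, 8.52, 7.80, 8.96 and 8.48 in ligated sham livers, against 5.09, 4.84, 4.35, 3.35 and 3.94 in control sham livers. The groups were far apart, and the rise was at least 12.98-fold (log2 4.10 ± 0.32, adjusted p = 2.55e-12). Its relatives Plod1 and Plod3 did not pass, with log2 differences of 0.16 ± 0.15 (95% interval from -0.16 to 0.47) and 0.12 ± 0.12 (-0.11 to 0.36). P4ha1 had 7.92, 8.02, 7.44, 8.69 and 8.32 in ligated sham livers, against 7.22, 7.25, 6.75, 6.91 and 6.89 in control sham livers. It rose 2.10-fold without overlap (log2 1.07 ± 0.22, adjusted p = 1.29e-04). P4ha2 and P4ha3, which encode alternative catalytic subunits, did not pass (log2 -0.05 ± 0.13 and -0.41 ± 0.19). P4ha3, at levels not above background in either group, passed as lower with array weights (adjusted p = 0.037), quantile normalization (0.013) and median centring (0.0025) and in 4 fits that left out 1 array.

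Of the 3 non-collagen matrix genes only Fbn1 passed. Fbn1, the microfibril protein fibrillin, had 8.02, 8.13, 7.37, 8.30 and 7.61 in ligated sham livers, against 5.48, 5.60, 5.63, 4.75 and 5.13 in control sham livers. It rose 5.93-fold without overlap (log2 2.57 ± 0.26, adjusted p = 8.54e-10). Fn1, fibronectin, which hepatocytes also secrete into plasma, had 12.09, 12.10, 12.51, 12.45 and 12.15 in ligated sham livers, against 12.33, 12.43, 12.38, 12.39 and 12.34 in control sham livers. The ligated arrays lay on both sides of the controls, and the log2 difference was -0.12 ± 0.11 (95% interval from -0.34 to 0.10). The Fn1 probe set does not tell the cellular and plasma forms apart here. Eln, elastin, had a log2 difference of 0.02 ± 0.19 (95% interval from -0.36 to 0.40) and was not above background in control sham livers.

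**Figure D2:**
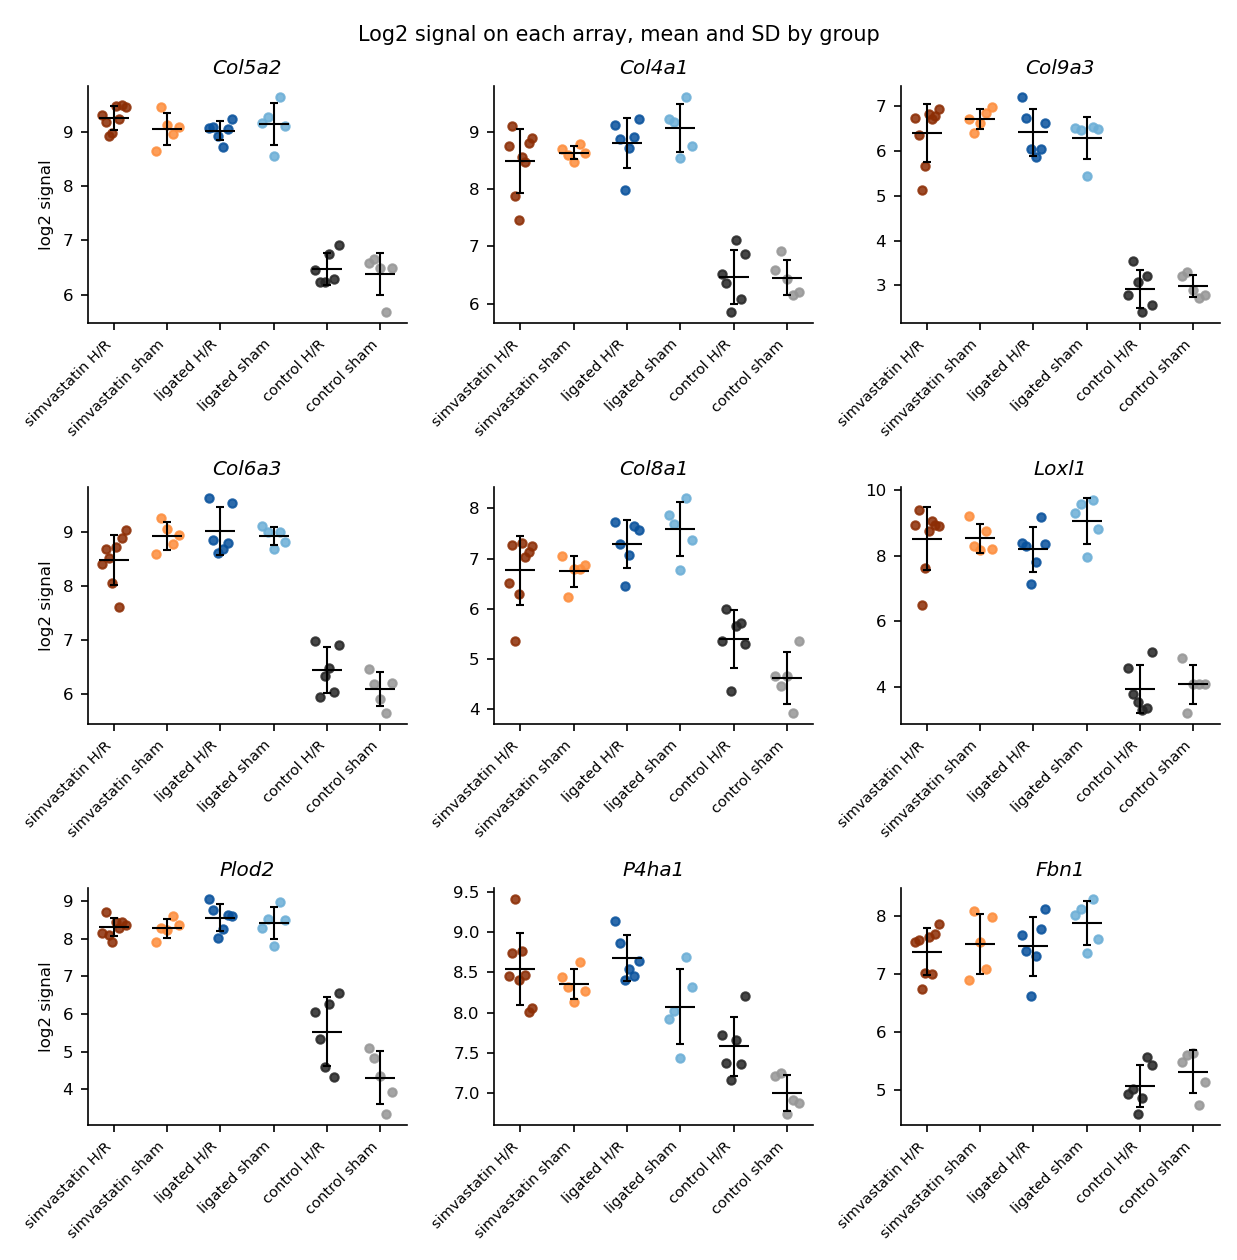
Log2 signal of 9 genes on each of the 35 arrays, 1 point per array, with the group mean and SD in black. The 4 ligated groups lie left of the control groups. For Col5a2, Col4a1, Col9a3, Col6a3, Loxl1, Plod2 and Fbn1 every array of the 4 ligated groups lies above every control array, and Plod2 is spread from 4.34 to 6.57 in control H/R.

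The same question in rats that had bled, ligated H/R against control H/R, used other arrays altogether. Of the 50 members 27 rose and 3 fell (24.7% and 22.3% of all genes), with a median log2 difference of 0.52, against -0.03 over all genes. In 25 of the 27 the ligated group was above background, while Col7a1 and Loxl3 were above it in neither group. After median centring, which moves the median of all genes to -0.38, 23 members rose and 15 fell, where 1963 of all 13438 genes rose and 7327 fell. Of the rises 25 were shared with the sham comparison, which is 96.2% of its 26 and 92.6% of the 27. Col16a1 passed only in sham rats, and Col7a1 and P4ha2 passed only after H/R. Over all genes the corresponding shares were 82.9% and 84.9%. The sign was the same in 43 of 50 members, or 86%, against 86.2% of all genes. In 22 members every ligated H/R array lay above every control H/R array (14.3% of all genes), and in 0 members below (8.94%).

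Loxl1 had a lowest, median and highest value of 7.12, 8.32 and 9.19 in ligated H/R livers, against 3.28, 3.64 and 5.05 in control H/R livers. The groups were again far apart, and the rise was at least 11.6-fold (log2 4.27 ± 0.40, adjusted p = 1.44e-10). Plod2 had 8.03, 8.62 and 9.06 in ligated H/R livers, against 4.34, 5.70 and 6.57 in control H/R livers, and rose 8.16-fold (log2 3.03 ± 0.29, adjusted p = 2.65e-10). Col9a3 rose at least 3.56-fold and Col1a1 at least 3.81-fold. Col5a2, Col6a3, Fbn1 and Col4a1 rose 5.81-, 5.97-, 5.33- and 5.05-fold. The dimmer probe set of Col6a3 passed as lower (log2 -0.42, limma, adjusted p = 0.030 with all probe sets tested). That set averaged 3.16 over all arrays, below the nonspecific level of both groups. Lox and Col3a1 had larger estimates here than in sham rats, log2 2.00 ± 0.29 and 1.89 ± 0.19, and Col8a1 a smaller one, 1.90 ± 0.30. The tests of those differences are the interactions below, and 0 members passed. Col14a1 had 6.69, 7.52 and 8.25 in ligated H/R livers, against 7.11, 7.52 and 7.66 in control H/R livers, a log2 difference of 0.01 ± 0.30 with wide overlap. All 3 falls, in Col20a1, Col22a1 and Col26a1, were at levels not above background in either group.

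Genes around collagen were counted in 6 lists chosen by function. In ligated sham against control sham livers, 5 of 15 measured genes of collagen folding and secretion rose and 4 fell, near the shares over all genes of 25.3% and 22.4%, against which the other lists can be read too. Serpinh1, the collagen chaperone HSP47, rose 5.73-fold (adjusted p = 3.25e-09), P3h3 rose at least 1.48-fold and Crtap 2.58-fold. P3h3 is a prolyl 3-hydroxylase family member, and Crtap encodes a partner protein of prolyl 3-hydroxylation. Of 9 small leucine-rich proteoglycans, which coat fibrils and regulate their width, 6 rose and 0 fell, with Bgn up 3.85-fold, Dcn 6.13-fold and Aspn at least 3.77-fold. Of 13 elastic fibre partners 7 rose and 0 fell, and Ltbp1 and Efemp2, which bind fibrillin and lysyl oxidase, were up 9.37- and 5.91-fold while elastin itself did not pass. Mfap4 rose at least 7.41-fold.

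Matricellular proteins, which modulate contact between cells and matrix, gave 7 rises and 1 fall among 10. Sparc rose 4.58-fold, Ccn2 10.5-fold and Spp1 28.7-fold, while Tgfbi, which binds collagen, fell by 1.03 on the log2 scale. Of 14 genes of collagen receptors and turnover 9 rose and 0 fell, with the collagen receptor Ddr1 up at least 5.23-fold, the inhibitor Timp2 5.74-fold and the gelatinase Mmp2 4.95-fold. Itga11, another of the 9, was above background in neither group. Among 5 propeptide-cleaving genes Pcolce, which enhances procollagen cleavage, rose 4.14-fold, and Bmp1, the protease it enhances, fell by 0.40 on the log2 scale (adjusted p = 0.028).

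Cell type markers were counted in ligated sham against control sham livers, where 25.3% of all genes rose and 22.4% fell. Of 8 cholangiocyte markers 7 rose and 0 fell, and the mean log2 signal of the list ran from 7.81 to 8.94 on ligated sham arrays and from 4.20 to 4.98 on control sham arrays, where Krt7, Sox9 and Sctr were not above background. Of 10 stellate cell and myofibroblast markers 8 rose and 0 fell, with list means from 6.92 to 7.86 on ligated sham arrays and from 5.65 to 5.94 on control sham arrays, where Des and Cygb were not above background. Vim and Cygb rose 11.5- and at least 5.96-fold. Of 5 portal fibroblast markers 3 rose, of 4 smooth muscle markers 2 rose, of 5 endothelial markers 1 rose and 2 fell, of 4 Kupffer cell and macrophage markers 1 fell, and of 3 lymphocyte markers 2 rose. No portal fibroblast, smooth muscle or lymphocyte marker was above background in control sham livers, nor was Vwf, the endothelial marker that rose. Actg2, a smooth muscle marker that rose, was not above background in ligated sham livers either. Of 7 hepatocyte markers 0 rose and 3 fell, with list means from 11.55 to 12.06 on ligated sham arrays and from 12.11 to 12.19 on control sham arrays. The part of these cell types in the rise of the collagens was not tested.

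The effect of H/R on the collagen genes was asked within each kind of rat. In control H/R against control sham livers 1 of 50 members rose and 0 fell (0.365% and 0.491% of all genes). That gene was Plod2, which had 4.34, 5.70 and 6.57 as lowest, median and highest in control H/R livers, against 5.09, 4.84, 4.35, 3.35 and 3.94 in control sham livers. The ranges overlapped, with 4 of 6 control H/R arrays above the highest control sham array. Control sham livers were not above background for Plod2, so the rise was at least 1.76-fold (log2 1.21 ± 0.30, limma, adjusted p = 0.044). It was lost in 17 of the 35 fits that each left out 1 array, among them those without control H/R replicate 1, 4 or 6 or control sham replicate 3, 4 or 5. The other 11 of those fits left out an array of a ligated group, which enters through the shared estimate of spread. With only these groups fitted the adjusted p was 0.277. The next members by p did not pass: P4ha1 had a log2 difference of 0.58 ± 0.21 (adjusted p = 0.196) and Col8a1 one of 0.78 ± 0.31 (adjusted p = 0.265). Col12a1 was higher on every control H/R array than on any control sham array, by log2 0.40 ± 0.17, without passing; such separation held for 0.752% of all genes upward and 1.25% downward. Of 14 receptor and turnover genes 1 rose, Mmp13, the rat interstitial collagenase, by log2 1.91 ± 0.47 (adjusted p = 0.040). Mmp13 was not above background in control sham livers, so no fold is given.

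Plod2 and P4ha1 are known as targets of hypoxia-inducible factors, whose response element has the core letters ACGTG. A stretch of 100 bases upstream of the Plod2 start, at positions -200 to -101 from it, is shown (RefSeq, build GRCr8, chr8:101964118-101964217, plus strand). Plod2 was chosen because it was the member that passed in both the ligation comparisons and the H/R comparison in controls. Capitals mark the core, found here on the other strand, where it reads CACGT.
Plod2 upstream: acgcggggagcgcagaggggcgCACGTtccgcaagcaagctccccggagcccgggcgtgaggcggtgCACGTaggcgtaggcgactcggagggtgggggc

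ACGTG was present on either strand in 19.3% of all 33469 promoters and in 6 of the 38 members with an entry, namely Col4a5, Col24a1, Col26a1, P4ha1, P4ha2 and Plod2. The stretch and the motif were chosen after the values were seen, and a match of letters is a description only.

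In ligated H/R against ligated sham livers 0 of 50 members passed in limma's test (0.119% of all genes rose and 0.0149% fell). In the same test 6 members and 1401 of all 13438 genes had an unadjusted p under 0.05. The members of smallest p were Loxl3 (log2 -0.63 ± 0.21, adjusted p = 0.254), P4ha2 (0.37 ± 0.13, adjusted p = 0.281) and P4ha1 (0.60 ± 0.21, adjusted p = 0.295). P4ha1 had 8.41, 8.59 and 9.14 as lowest, median and highest in ligated H/R livers, against 7.92, 8.02, 7.44, 8.69 and 8.32 in ligated sham livers, with overlap. In simvastatin H/R against simvastatin sham livers 0 members passed in limma's test, as did 0% of all genes, with 6 members and 725 genes at an unadjusted p under 0.05. The smallest p-values belonged to Col5a1 (log2 -0.72 ± 0.21, adjusted p = 0.692), Col1a1 (-0.66 ± 0.23) and Fn1 (0.26 ± 0.10). The difference between the H/R effect in ligated and in control rats passed in limma's interaction test for 0 of 50 members (0% of all genes higher and 0.00744% lower). In that test 5 members and 734 of all 13438 genes had an unadjusted p under 0.05. The smallest p-values were those of Col12a1 (difference of differences -0.64 ± 0.24, adjusted p = 0.727), Plod2 (-1.07 ± 0.43) and Col8a1 (-1.08 ± 0.44). The 95% interval for Plod2, not adjusted for the number of genes tested, ran from -1.95 to -0.19. In every alternative fit its adjusted p in limma's test was 0.46 or more. Plod2 was not above background in control sham livers, a group that enters this difference.

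Simvastatin was first compared in rats without blood loss. In simvastatin sham against ligated sham livers 0 of 50 members passed in limma's test (0.633% of all genes rose and 0.149% fell). In that test 3 members and 1453 of all 13438 genes had an unadjusted p under 0.05. Col8a1 had 7.06, 6.23, 6.79, 6.79 and 6.87 in simvastatin sham livers, against 7.87, 7.69, 6.78, 8.21 and 7.37 in ligated sham livers. The groups overlapped through ligated sham replicate 3, and the log2 difference was -0.84 ± 0.33 (adjusted p = 0.310), or -1.04 without that array (adjusted p = 0.195). Col26a1 and Col5a1 had log2 differences of -0.43 ± 0.18 and 0.49 ± 0.23. These groups share no title number ending, so drug and ending cannot be told apart in this comparison. Col1a1 had 6.21, 6.85, 6.50, 5.88 and 6.19 in simvastatin sham livers, against 6.76, 6.45, 6.64, 6.13 and 6.35 in ligated sham livers. The groups overlapped widely, with a log2 difference of -0.14 ± 0.25 (95% interval from -0.65 to 0.37).

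After H/R, 0 members rose and 2 fell in simvastatin H/R against ligated H/R livers (0.848% and 0.506% of all genes). Col1a1 had a lowest, median and highest value of 4.64, 5.80 and 6.34 in simvastatin H/R livers, against 6.23, 6.51 and 7.24 in ligated H/R livers. The ranges overlapped only at their ends, and Col1a1 was 1.89-fold lower with simvastatin (log2 -0.92 ± 0.21, limma, adjusted p = 0.020). Loxl2, a lysyl oxidase that acts on collagen IV and fibrillar collagen, had 4.83, 5.51 and 5.67 in simvastatin H/R livers, against 5.74, 6.17 and 6.80 in ligated H/R livers. Here every simvastatin array was below every ligated H/R array, as in 0.335% of all genes, and 0 members lay wholly above (0.625% of all genes). The log2 difference was -0.83 ± 0.20 (adjusted p = 0.028).

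The count of 2 depended on single arrays. Leaving out ligated H/R replicate 1, ligated H/R replicate 6 or simvastatin H/R replicate 6 left 0 members past the threshold, leaving out ligated H/R replicate 4 or simvastatin H/R replicate 4 left 1, and leaving out simvastatin H/R replicate 3 or simvastatin sham replicate 1 gave 4. With the title number ending as a block, which rests on 2 arrays of each group with a shared ending, the log2 differences were -0.86 for Col1a1 and -0.97 for Loxl2, and 0 members passed. The dimmer probe set of Col1a1 gave -0.98 (adjusted p = 0.069 with all probe sets tested) and that of Loxl2, not above the nonspecific level on average, gives no direction. The test of whether the H/R effect itself differed between simvastatin and untreated ligated rats passed in limma for 0 of 50 members (0% of all genes higher and 0.00744% lower). In that test 4 members and 654 of all 13438 genes had an unadjusted p under 0.05. The members of smallest p were Col14a1 at -1.19 ± 0.43, Col5a1 at -0.84 ± 0.31 and Col1a1 at -0.78 ± 0.33.

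The partners of Col1a1 had lower means too but did not pass. Col1a2 had 8.36, 9.09 and 9.67 in simvastatin H/R livers, against 9.45, 9.63 and 10.29 in ligated H/R livers, with overlap (log2 -0.64 ± 0.17, adjusted p = 0.053). The dimmer probe set of Col1a2 gave -0.48 (limma, adjusted p = 0.176 with all probe sets tested). Col3a1 had 10.33, 10.97 and 11.38 in simvastatin H/R livers, against 11.29, 11.47 and 11.79 in ligated H/R livers (log2 -0.59 ± 0.17, adjusted p = 0.079). Col14a1 had 5.30, 6.52 and 7.54 in simvastatin H/R livers, against 6.69, 7.52 and 8.25 in ligated H/R livers (log2 -0.88 ± 0.28, adjusted p = 0.109). Simvastatin H/R replicate 6 was the lowest array for Col1a1 and for these 3 genes. Without it the log2 differences were -0.77 for Col1a1, -0.54 for Col1a2, -0.51 for Col3a1 and -0.70 for Col14a1 (limma, adjusted p = 0.050, 0.129, 0.179 and 0.244). Over the 50 members the median log2 difference was -0.09, against 0.00 over all genes. Of the 10 stellate cell and myofibroblast markers 0 passed, with list means from 7.12 to 7.60 on simvastatin H/R arrays and from 7.10 to 7.74 on ligated H/R arrays, and of the 8 cholangiocyte markers 0 passed. In the companion lists Sparcl1, a SPARC relative, rose by log2 1.47 ± 0.29 (adjusted p = 0.00447) and Tnc, tenascin C, fell by 1.02 on the log2 scale (adjusted p = 0.049). Tnc was not above background in simvastatin H/R livers.

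**Figure D3:**
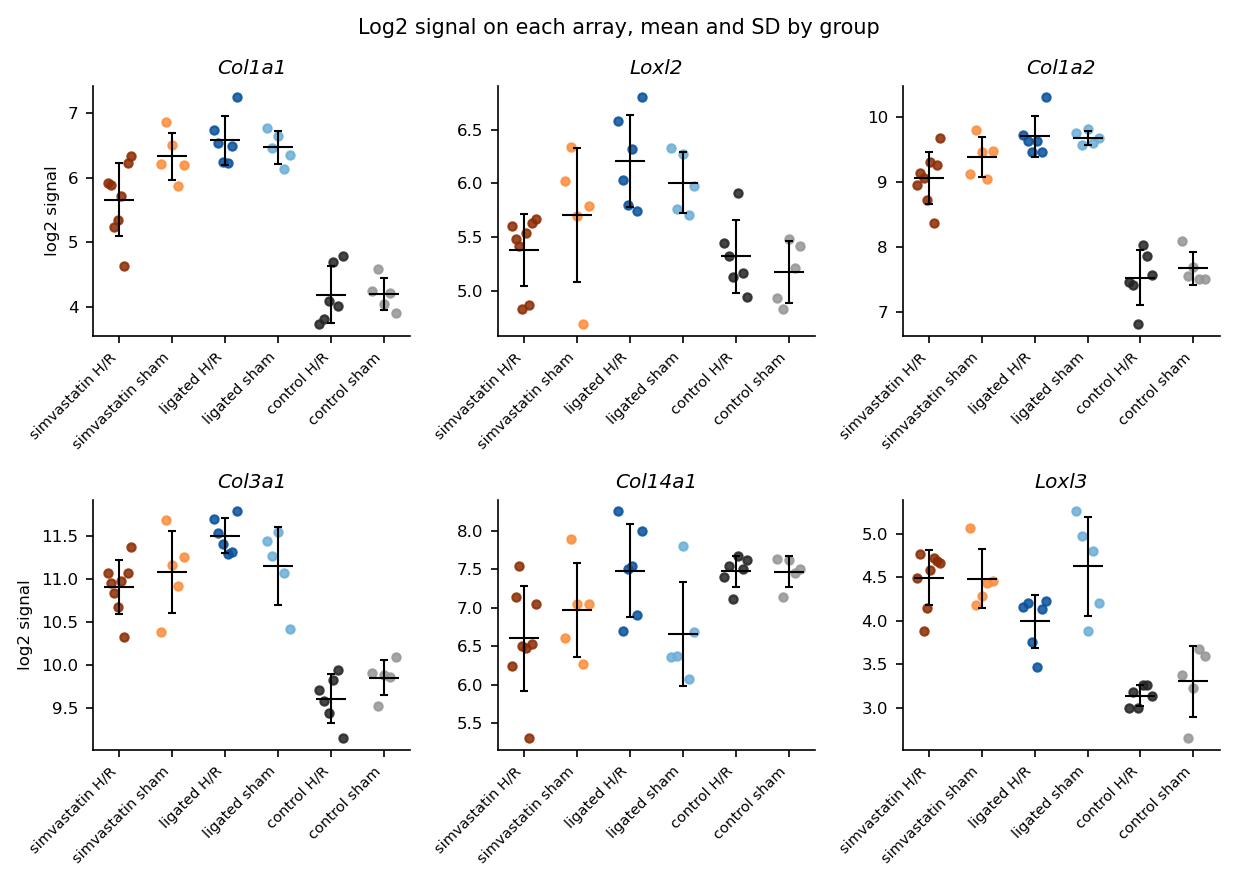
Log2 signal of 6 genes on each array, with the group mean and SD in black and the groups ordered from simvastatin H/R to control sham. The simvastatin H/R arrays of Loxl2 run from 4.83 to 5.67 and those of ligated H/R from 5.74 to 6.80, without overlap. For Col1a1 and Col1a2 the mean of the simvastatin H/R group lies between the means of the other ligated groups and those of the controls. Its arrays overlap those of ligated H/R for both genes and those of control H/R for Col1a1.

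A stretch of 120 bases upstream of the Col1a2 start, at positions -250 to -131 from it, is shown because Col1a2 pairs with Col1a1 in the same molecule (RefSeq, build GRCr8, chr4:33518307-33518426, plus strand). The stretch and motifs were chosen after the values were seen. Capitals mark CCAAT, read here on the other strand as ATTGG, and TATAAA, the letters of a TATA box. Both lie upstream of position -131 from the annotated start, and a match of letters is a description only.
Col1a2 upstream: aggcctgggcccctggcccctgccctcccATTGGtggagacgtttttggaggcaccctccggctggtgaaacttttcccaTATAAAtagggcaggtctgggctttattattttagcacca

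CCAAT was present on either strand in 37.5% of all promoters and in 9 of 38 members, and TATAAA in 14.2% of all promoters and in 4 members, Col1a2, Col10a1, Col13a1 and Col17a1.

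The simvastatin groups were also set against controls without a test, a comparison added after the data were seen. It uses the same control arrays as the ligation comparisons, so the members called there are not counted again here. In simvastatin sham against control sham livers 22 of the 50 members lay wholly above and 3 wholly below, where 20% and 15.2% of all genes did. In simvastatin H/R against control H/R livers 18 members lay wholly above and 1 wholly below, where 15% and 10.4% of all genes did. Some simvastatin arrays carry the title number ending of the controls. Among only those arrays, 3 simvastatin sham against 5 control sham, 24 members lay above and 7 below, where 26.3% and 23.6% of all genes did. Among 6 simvastatin H/R against 6 control H/R arrays 18 lay above and 2 below, where 16.2% and 12.5% of all genes did.

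Within the ligated groups, the 25 members that rose in both ligation comparisons were not all lowest on the same array. In the simvastatin H/R group the distance between the lowest and highest array was 1.18 at the median member and reached 2.88 for Loxl1. Replicate 3 was the lowest array for 12 members, among them Loxl1, Col4a2, Col4a5, Col5a1, Col8a1, Col9a2, Col9a3 and Fbn1, and replicate 4 was the lowest for 6, among them Col4a1 and Plod2. Replicate 3 was at the same time the highest array for Col6a1, Col6a2 and P4ha1. Replicate 6 was the lowest for the other set of 6, Col1a1, Col1a2, Col3a1, Col6a1, Col6a2 and Col6a3, while its Loxl1 of 9.06 and Col4a5 of 10.01 were above the group medians of 8.91 and 9.96. The cholangiocyte list mean was 7.69 and 7.85 on replicates 3 and 4 and 8.95 on replicate 6, and ran from 8.47 to 9.10 on the other arrays. The stellate list mean was 7.12, 7.43 and 7.47 on replicates 3, 4 and 6, and ran from 7.20 to 7.60 on the other arrays.

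**Figure D4:**
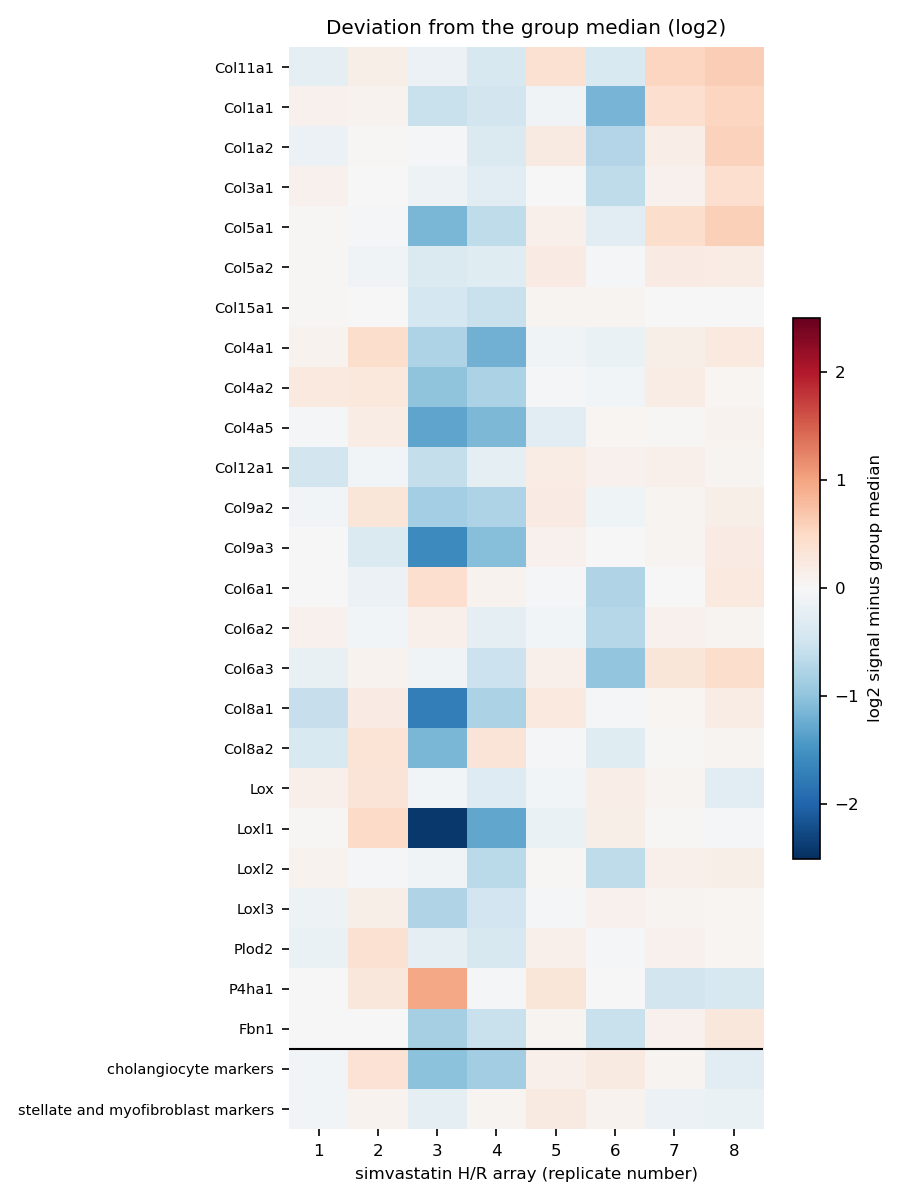
Deviation of each simvastatin H/R array from the group median, in log2 units, for the 25 members that rose in both ligation comparisons, ordered by role, and for the mean of 2 marker lists below the line. Columns are the 8 arrays. Replicates 3 and 4 are low for Loxl1, Col9a3, Col4a5 and the cholangiocyte markers, and replicate 6 is low for Col1a1, Col6a3 and Col6a1.

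In the simvastatin sham group replicate 1 was the lowest array for 9 members and the highest for 8, and replicates 2, 3 and 4 were the lowest for 4, 6 and 6, with cholangiocyte list means from 8.27 to 9.13 over the group. Ligated sham replicate 3 was the lowest array for 16 of the 25 members, including Loxl1, Plod2, Col4a1, Col4a2, Col4a5, Col8a1 and Col9a3, and was the highest for Col1a2 and Col3a1. Its cholangiocyte list mean was 7.81, against 8.64 to 8.94 on the other ligated sham arrays. Ligated sham replicate 5 was the lowest for 4 members and, like replicate 3, was among the 2 lowest arrays for 17. In ligated H/R livers replicate 3 was the lowest for 12 members and replicate 4 for 9, with cholangiocyte list means of 7.85 and 8.17 against 8.40 to 8.76 on the other arrays. Ligated H/R replicate 3 was the highest for Col6a1 and Col6a2. Whether these arrays differ by the cells in the sampled piece was not tested. Without ligated sham replicate 3 the sham comparison had 28 rises in place of 26, and without ligated H/R replicate 3 or 4 the H/R comparison had 26 in place of 27.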

How the data were processed

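Liver RNA of 35 samples in 6 groups was measured on Affymetrix arrays. The values used are log2 signals per probe set as deposited by the authors in the series value table, running from 1.51 to 13.79. How the authors corrected background, normalized and summarised the probes was not given in these sources. Array medians differ by about 0.3, no pair of arrays is identical, and 0 columns were left unused.

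Of 31139 features, 19063 had 1 symbol in the platform annotation, 572 several and 11504 none. The brightest probe set by mean over all arrays stood for each gene, giving 13438 genes. A linear model with 1 mean per group was fitted over all arrays with limma 3.58.1 in R 4.3.3, followed by eBayes and Benjamini-Hochberg adjustment over all genes. The fit was tested on simulated data. A gene was above background where its group mean exceeded the mean of the brightest of 23 nonspecific control probes per array. Intervals are 95% and come from the same fit. Probe sets cannot be ranked against each other by level.

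The genes, the 6 companion lists (66 of 88 genes matched) and the 8 marker lists (46 of 54 matched) were chosen with earlier results of these data known. Named were, in ligated sham against control sham livers, up to 4 genes of each role with the smallest p, the gene of largest fold in each role and every gene that fell, and elsewhere those past the threshold or the 3 of smallest p. Genes named beyond that were chosen after their values were seen. Promoter sequences are from RefSeq, build GRCr8, with an entry for 38 of 50 members. Alternatives were the compared groups only, trend and robust eBayes, array weights, a filter at the 30th percentile, a further quantile normalization, median centring, the mean of probe sets, a title number ending as a block and leaving out each array.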

Additional observations from a re-analysis of the deposited data

Results flagged for a closer look

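For the 37 members named by rule, 11 of 222 sets of values per gene and group held an array far from the others by Dixon's test. That test flags about 1 in 20 groups by chance, so the count is about what chance alone gives. Among genes that rose after ligation, Col9a3 was 5.45 in ligated sham replicate 3, where the next array was 6.48. Col1a2 was 10.29 in ligated H/R replicate 6, with the next array at 9.72, and Col6a2 was 3.39 in simvastatin H/R replicate 6, with the next at 3.86. In controls, Col5a2 was 5.69 in control sham replicate 4 (next 6.49), and Col12a1 was 5.33 in control H/R replicate 3 (next 5.10). Plod1 was 7.82 in control H/R replicate 5 (next 7.44).

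The other values lie at or near background. Col20a1 was 3.69 in simvastatin H/R replicate 3, and P4ha3 was 4.12 on that array and 4.26 in ligated H/R replicate 4. Col6a5 was 3.14 in ligated sham replicate 3, and Col17a1 was 2.76 in control sham replicate 2. Ligated sham replicate 3 and simvastatin H/R replicates 3 and 6 each appear more than once, or stand low for many members. The reason these arrays stand apart was not tested.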

How the results depend on the processing

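Counting both directions, leaving out 1 array gave 28 to 33 members in the ligation comparison of sham rats and 28 to 30 after H/R. The falls moved more: the filter at the 30th percentile left 2 in place of 5 in sham rats and 0 in place of 3 after H/R. The 1 member of control H/R against control sham became 0 with the compared groups only and with trend and robust eBayes, and 0 to 1 on leaving out 1 array. The 2 members of simvastatin H/R against ligated H/R became 1 with the compared groups only, 6 with array weights, 0 with the title number ending as a block, and 0 to 4 on leaving out 1 array. Dimmer probe sets had log2 differences below 0 for Col6a3 (-0.29 in sham rats and -0.42 after H/R), Col12a1 (-0.043) and Loxl2 (-0.11), but averaged 3.16, 2.58 and 3.27, below the nonspecific level of the groups compared, and give no direction. That of Col6a3 passed as lower after H/R with all probe sets tested (limma, adjusted p = 0.030). The members counted as rising or falling at levels not above background in either group carry the same limit. Median centring gave 22 rises and 14 falls in sham rats and 23 and 15 after H/R. Of all 13438 genes 1949 then rose and 7356 fell in sham rats, and 1963 and 7327 after H/R. Fn1 then fell by 0.50 on the log2 scale in sham rats, where the median of all genes lay at -0.42. Col1a2 passed in simvastatin H/R against ligated H/R with trend and robust eBayes, array weights, the filter, quantile normalization and median centring, and in 8 fits that left out 1 array (adjusted p from 0.024 to 0.049 in all). It did not pass in the others, and over all alternatives its adjusted p ran from 0.024 to 0.800. Its dimmer probe set, which averaged 8.22 over all arrays, did not pass (log2 -0.48, limma, adjusted p = 0.176). The adjusted p of Col1a1 in that comparison ran from 0.0088 to 0.835, that of Loxl2 from 0.0067 to 0.674, and that of Plod2 in control H/R against control sham from 0.0085 to 0.277. No paired analysis was possible because the labels give no replicate numbers shared between groups. Signal over background limits the 10 members above it in 0 groups.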

Other observations

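Of the 18 members read by several probe sets, 13 had the same call on every set in ligated sham against control sham livers. The 5 that differed were Col4a6, Col6a3, Col11a1, Col12a1 and Loxl2. For Col1a1 both sets rose, by log2 2.26 and 2.89.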
